A study of Mus musculus with 8 samples.

Results

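The epidermal differentiation complex genes were selected by symbol from a table of 55450 genes measured in embryonic thymic epithelial cells (TECs). The selection took every gene named *S100a* followed by a number alone, every *Sprr* gene, every numbered *Lce* gene, and *Hrnr*, *Flg*, *Flg2*, *Rptn*, *Crnn*, *Tchh*, *Tchhl1*, *Ivl*, *Lor*, and *Kprp*. It thus left out *S100a7a*, whose symbol ends in a letter. It found 61 genes, with 13 *S100a* genes, 7 genes for fused-type S100 proteins, 17 *Sprr* genes, 21 *Lce* genes, and the 3 genes *Ivl*, *Lor*, and *Kprp*. All 61 lie on chromosome 3 between positions 90511034 and 93564643 of the mouse genome GRCm38, a stretch of 3.05 Mb. The annotation, GENCODE M21, lists 59 of them as protein-coding. The gene group was chosen from earlier results of these same libraries, in which the level of *Hrnr* in CCL21-RANK+ TECs had been seen, so the counts of genes given below are a description of the group.

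The RNA-sequencing data comprised 8 libraries of CD45-EpCAM+ TECs sorted at embryonic day 17. All embryos carried both a tdTomato reporter knocked into *Ccl21a*, the gene of a medullary chemokine, and a Venus transgene that reports *Tnfrsf11a*, the gene of the receptor RANK. The sorted populations were CCL21+RANK- TECs (3 libraries), CCL21-RANK+ TECs (3 libraries), and CCL21-RANK- TECs (2 libraries). They are called CCL21+ TECs, RANK+ TECs, and reporter-negative TECs below, and the last are defined only by the absence of both reporters. Neither the labels nor the methods used here say whether replicates came from separate embryos or pools, so p-values measure only the spread between these libraries. Totals were 59677342, 46003149, and 55116934 counts in the CCL21+ libraries, 57286773, 50146758, and 42751858 in the RANK+ libraries, and 67451448 and 71625319 in the reporter-negative libraries. Levels are given as RPKM, the counts of a gene per kilobase of its exons and relative to the library total, which allows genes to be compared per length.

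*Tnfrsf11a* and *Aire* followed the labels, whereas *Ccl21a* did so only in part. *Ccl21a* was at 561, 346, and 305 RPKM in CCL21+ libraries, at 152, 95.9, and 78.2 RPKM in RANK+ libraries, and at 6.89 and 8.88 RPKM in reporter-negative libraries. The RANK+ TECs, sorted as CCL21-, thus held *Ccl21a* transcripts at a level 4.10-fold below CCL21+ TECs but 12.6-fold above reporter-negative TECs (edgeR adjusted p = 2.49e-05). *Tnfrsf11a* was at 111, 93.1, and 107 RPKM in RANK+ libraries and at 10.3 RPKM or less in all others. *Aire*, the regulator that drives tissue-restricted transcription in mature medullary TECs (mTECs), was at 131, 94.1, and 114 RPKM in RANK+ libraries and at 0.810 RPKM or less elsewhere. *Epcam* and *Foxn1*, which mark TECs, were at 49.5 RPKM or more and 50.7 RPKM or more in every library.

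The epidermal differentiation complex is a dense cluster of genes that keratinocytes switch on as they leave the basal layer and cornify. Loricrin, involucrin, and the small proline-rich (SPRR) and late cornified envelope (LCE) proteins are precursors that transglutaminases cross-link into the cornified envelope. The fused-type S100 proteins, such as filaggrin and hornerin, carry an S100 calcium-binding region joined to long repeats and pack keratin filaments or reinforce the envelope. The S100A proteins are small calcium-binding proteins with roles inside and outside many cell types. In the thymus, mTECs transcribe many genes that are otherwise restricted to peripheral tissues, and some mTECs are known to take on keratinocyte traits.

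More of the complex was detected in RANK+ TECs than in the other populations. With detection set at more than 3 counts after rounding to whole numbers, 54, 39, and 39 of the 61 genes were detected in the RANK+ libraries. The CCL21+ libraries had 16, 18, and 19 detected genes, and the reporter-negative libraries had 16 and 17. The RANK+ libraries lay above all others, whereas the other populations overlapped. After all libraries were thinned to the depth of the smallest one the numbers were 51.9, 37.6, and 39.0 genes against 15.2 to 18.4 and 15.1 to 15.4 on average. The same held less steeply for all genes in the table, of which 24358, 22185, and 22464 were detected in RANK+ libraries and 18951 to 19714 in the other libraries.

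In all, 57 genes of the complex were detected in at least 1 library, 15 in every library, and 35 in RANK+ libraries alone. Of the other 4 genes, *Sprr2c-ps*, *Sprr2j-ps*, and *Lce1l* were at 0 in every library, and *Sprr2h* had 3 counts in 1 RANK+ library. The number of all genes detected in RANK+ libraries alone was not counted, and more genes of any kind were detected in those libraries. The 35 is thus a description and does not set the complex apart. A count of 3 corresponded to between 0.0419 and 0.0702 CPM, depending on the library, where CPM is the count scaled to a common library total. In bulk libraries, fewer cells of a type and less RNA per cell cannot be told apart.

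**Figure D1:**
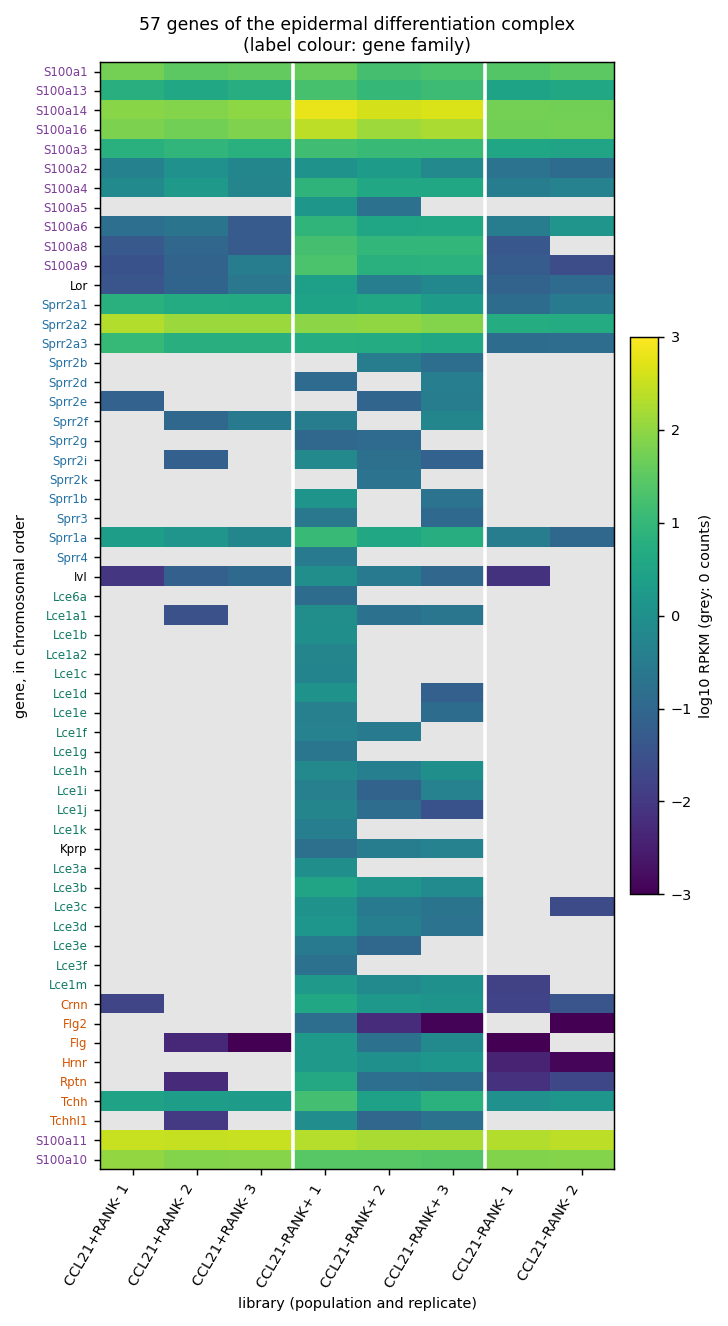
Levels of the 57 detected genes (rows, in chromosomal order, label colour by family) in the 8 libraries (columns), as log10 RPKM with 0 counts in grey. The block from *Sprr2b* to *Tchhl1* is mostly grey outside the 3 RANK+ libraries, and 11 genes were over 3 counts in RANK+ replicate 1 alone, a number not counted for all genes.

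One library stood apart. Replicate 1 of the RANK+ TECs was the highest of its group for 43 of the 57 detected genes (75.4%), whereas it was the highest for 40.3% of all genes tested. These shares are not like for like. The 57 include genes with too few counts to be tested, and 11 of them were over 3 counts in replicate 1 alone, which makes it their highest library by selection. Of all 3306 genes called higher in RANK+ than in CCL21+ TECs it was the highest for 58.1%, and for the genes of the complex called so it was the highest for 16 of 16. It was the deepest library of its group, and it had the most detected genes, also after thinning. The numbers of genes of the complex called, those of most epidermal lists, and some values that moved with it are also given without it.

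The families differed in their pattern over the populations. The *S100a* genes summed to 622, 543, and 602 CPM in CCL21+ libraries, 1790, 1130, and 1290 CPM in RANK+ libraries, and 410 and 450 CPM in reporter-negative libraries. The *Sprr* genes summed to 639, 403, and 386 CPM in CCL21+ libraries, 302, 325, and 250 CPM in RANK+ libraries, and only 16.3 and 15.7 CPM in reporter-negative libraries. Thus the *S100a* sum was highest in RANK+ TECs, and the *Sprr* sum was high in both populations that carry a reporter, with no overlap between the groups in either family.

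The fused-type S100 genes summed to 173, 34.4, and 71.8 CPM in RANK+ libraries, 12.1 to 16.3 CPM in CCL21+ libraries, and 6.57 and 8.47 CPM in reporter-negative libraries. The *Lce* genes summed to 10.7, 2.63, and 2.95 CPM in RANK+ libraries and to 0.0217 CPM or less in every other library. *Ivl*, *Lor*, and *Kprp* together reached 6.55, 2.17, and 2.55 CPM in RANK+ libraries and 0.635 CPM or less elsewhere. These 3 families were lowest in abundance and highest in replicate 1. After TMM scaling, replicate 1 was above the mean of replicates 2 and 3 by 3.02-fold for fused-type S100 and 3.54-fold for *Lce*. For *Ivl*, *Lor*, and *Kprp* the ratio was 2.55-fold, compared with 1.37-fold for *S100a* and 0.962-fold for *Sprr*. The CPM sums given here are without TMM scaling, so their ratios are somewhat larger.

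**Figure D2:**
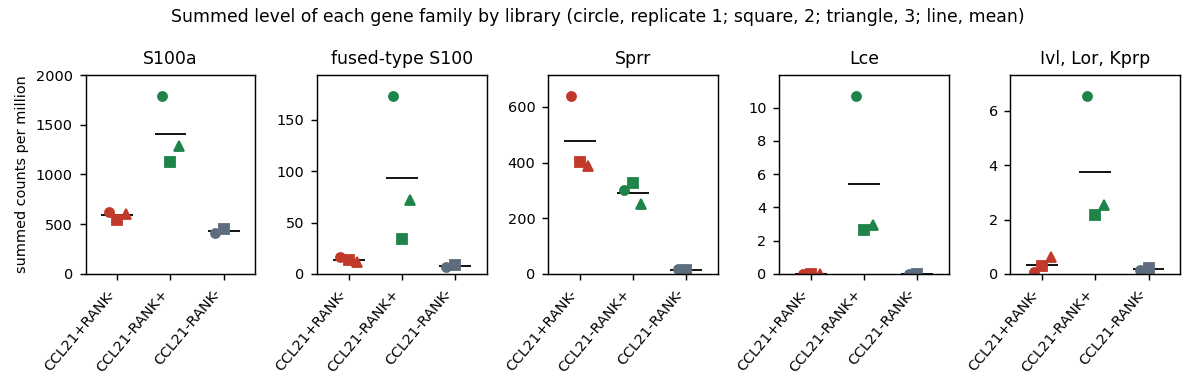
Summed level of each gene family in CPM (vertical axis, starting at 0) for the 3 populations, with a symbol per library and a line at the mean. The *Sprr* sum is highest in CCL21+ TECs, and the *Lce* sum reaches 10.7 CPM in RANK+ replicate 1 and at most 0.0217 outside RANK+ TECs.

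Differences were tested by edgeR's quasi-likelihood F-test, fitted once to all 8 libraries and 21451 genes. To be called, a gene needed an adjusted p under 0.05, a difference of more than 1.5-fold, and a mean above 1 RPKM in the higher group. Of the 61 genes 32 passed the filter on low counts, and several did so only through the RANK+ libraries, in which they were high. Such genes had to differ once they were tested, so their share among tested genes and their adjusted p are a description and not separate support.

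Between RANK+ and CCL21+ TECs, 16 of the 32 tested genes of the complex were called higher in RANK+ TECs, beside 15.4% of all genes tested, and 6 of the 32 were called higher in CCL21+ TECs, beside 15.4% of all genes tested. The other 29 of the 61 genes were not tested. The 16 include *Hrnr*, whose level had led to the choice of the group, and so do the genes called higher over reporter-negative TECs. The 16 comprised 8 *S100a*, 4 fused-type S100, 1 *Sprr*, and 2 *Lce* genes and *Lor*, whereas the 6 comprised *S100a1*, *S100a10*, *S100a11*, and the 3 *Sprr2a* genes. Without replicate 1 of the RANK+ TECs the 16 became 11, and *S100a3*, *Lce1m*, *Rptn*, *Lor*, and *Sprr1a* were no longer called.

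Between RANK+ and reporter-negative TECs, which share the RANK+ libraries with the first comparison, 20 genes were called higher in RANK+ TECs (14.4% of all genes tested) and *S100a10* alone was called higher in reporter-negative TECs (15.1% of all genes tested). Without RANK+ replicate 1 the 20 became 17, and *Lce1m*, *Rptn*, and *Lor* were no longer called. Between CCL21+ and reporter-negative TECs, 5 genes were called higher in CCL21+ TECs (4.35% of all genes tested), namely *S100a3*, *S100a14*, and the 3 *Sprr2a* genes. No gene of the complex was called higher in reporter-negative TECs by edgeR or DESeq2 (3.66% of all genes tested by edgeR), and 2 had an unadjusted p under 0.05 in that direction.

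**Figure D3:**
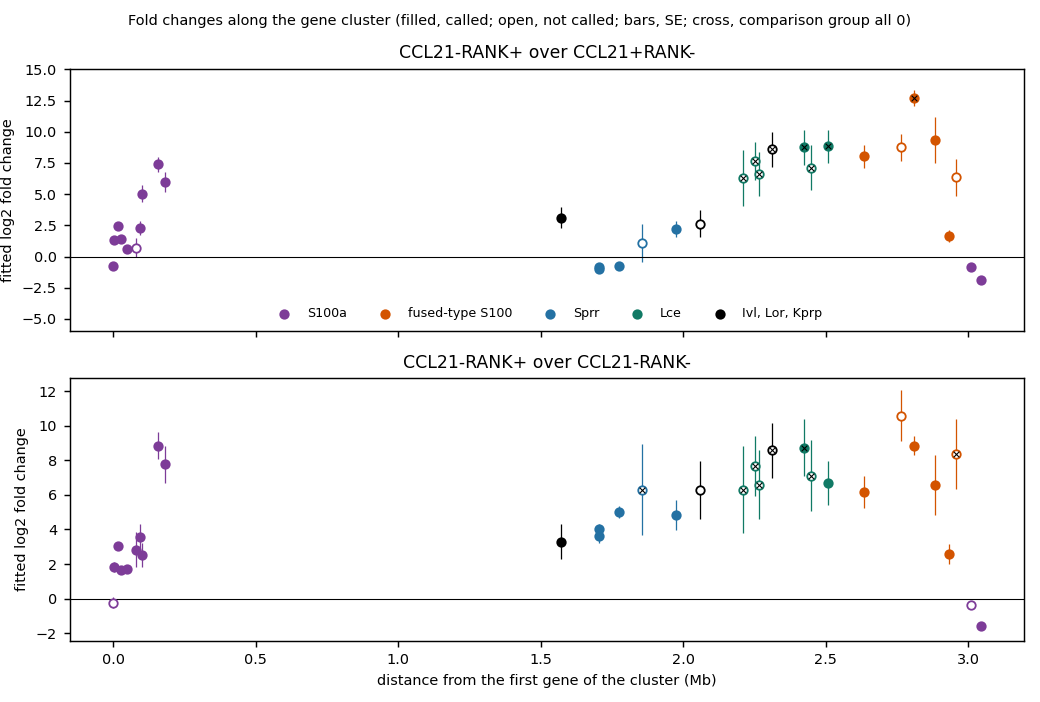
Fitted log2 fold changes with standard errors (vertical axis) of the 32 genes that passed the filter, by distance in Mb from the first gene of the cluster, for RANK+ over CCL21+ TECs (top) and over reporter-negative TECs (bottom). Filled points were called, crosses mark a comparison group with 0 counts, for which the value is not a bound, and *S100a10* and *S100a11* at the far end lie below 0 in both panels.

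Among the *S100a* genes, *S100a14* and *S100a16* carried most of the higher sum in RANK+ TECs. *S100a14* (chromosome 3, 90526856, plus strand), which encodes an S100 protein of epithelial cells, was at 632, 400, and 455 RPKM in RANK+ libraries, 84.6, 78.8, and 93.6 RPKM in CCL21+ libraries, and 55.4 and 53.6 RPKM in reporter-negative libraries. The 3 populations did not overlap, and the log2 fold change was 2.41 ± 0.15 (SE, 5.30-fold; edgeR adjusted p = 1.67e-06) over CCL21+ TECs and 3.05 ± 0.18 (edgeR adjusted p = 1.56e-06) over reporter-negative TECs. It was also 1.57-fold higher in CCL21+ than in reporter-negative TECs (edgeR adjusted p = 0.0298).

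*S100a16* was at 247, 135, and 172 RPKM in RANK+ libraries, 54.2 to 70.0 RPKM in CCL21+ libraries, and 52.2 and 56.2 RPKM in reporter-negative libraries, a log2 fold change of 1.42 ± 0.17 (edgeR adjusted p = 8.16e-05) over CCL21+ TECs. *S100a13*, whose product takes part in the release of growth factors that lack a signal peptide, was at 17.9, 9.82, and 13.1 RPKM in RANK+ libraries and at 3.09 to 5.88 RPKM in the others, and it was called in both comparisons. *S100a3*, known from the hair cuticle, followed a graded order, with means of 12.1, 7.24, and 3.32 RPKM in RANK+, CCL21+, and reporter-negative TECs. All 3 steps of *S100a3* were called, but the step between RANK+ and CCL21+ TECs was only 1.51-fold (edgeR adjusted p = 0.0176).

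*S100a8* and *S100a9* were nearly restricted to RANK+ TECs. *S100a8* and *S100a9*, whose products form the calcium- and zinc-binding heterodimer calprotectin of myeloid cells and stressed keratinocytes, had 694, 325, and 286 and 587, 169, and 153 counts in RANK+ libraries, and no other library had more than 3 counts of *S100a8* or 10 counts of *S100a9*. In RPKM, *S100a8* was at 17.5, 9.34, and 9.64 in RANK+ libraries, a log2 fold change of 7.38 ± 0.60 (edgeR adjusted p = 7.33e-06) over CCL21+ TECs, and *S100a9* was at 19.6, 6.46, and 6.86, a log2 fold change of 5.99 ± 0.78 (edgeR adjusted p = 0.00016). Without RANK+ replicate 1 the log2 fold change of *S100a9* was 5.35, and its mean in RANK+ TECs was 6.66 RPKM. *S100a8* and *S100a9* passed the filter only through the RANK+ libraries, so their adjusted p are a description. *S100a6* was at 8.35, 3.30, and 3.94 RPKM in RANK+ libraries, 0.0531 to 0.207 RPKM in CCL21+ libraries, and 0.347 and 1.36 RPKM in reporter-negative libraries, and it was called higher in RANK+ TECs than in both others.

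*S100a4*, also known as a gene of fibroblasts and myeloid cells, was at 7.98, 3.65, and 4.06 RPKM in RANK+ libraries and at 1.64 RPKM or less in the others, a log2 fold change of 2.26 ± 0.56 (edgeR adjusted p = 0.0073) over CCL21+ TECs. Of its exon sequence 51.7% is shared with the overlapping gene *Gm42674* on the same strand, so reads from that stretch cannot be told apart. *S100a2* had 31 counts or fewer in every library, and it was called higher in RANK+ than in reporter-negative TECs (edgeR adjusted p = 0.0429) but not than in CCL21+ TECs. That call was lost without the expression filter, with the replicate block, and without RANK+ replicate 2 or either reporter-negative library. *S100a5*, which stayed under 1 RPKM on average, had 38 and 4 counts in RANK+ replicates 1 and 2 and 0 in the other libraries.

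**Figure D4:**
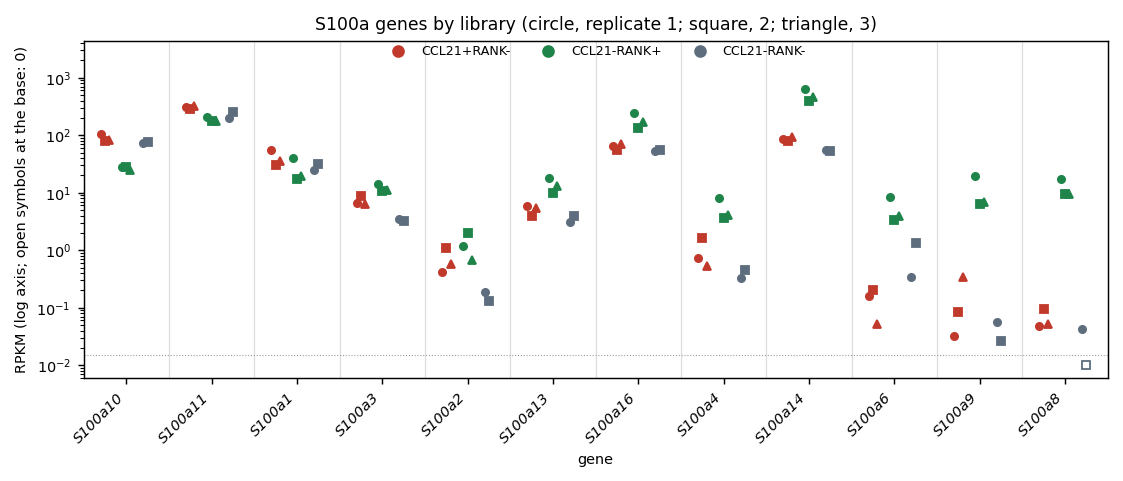
RPKM on a log axis of the 12 *S100a* genes with a group mean of at least 1 RPKM, a symbol per library, ordered from left to right by log2 fold change between RANK+ and CCL21+ TECs. *S100a10*, *S100a11*, and *S100a1* stand on the left, with *S100a10* lowest in RANK+ TECs, and *S100a8* and *S100a9* on the right are under 0.4 RPKM outside RANK+ TECs.

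The *S100a* genes that went the other way lie at the ends of the cluster. *S100a10*, the light chain partner of annexin A2, was at 28.3, 28.0, and 24.3 RPKM in RANK+ libraries, at 107, 78.8, and 82.1 RPKM in CCL21+ libraries, and at 72.7 and 76.7 RPKM in reporter-negative libraries. RANK+ TECs were thus lowest without overlap, 3.61-fold below CCL21+ TECs (log2 fold change -1.85 ± 0.14, edgeR adjusted p = 4.17e-06) and 3.02-fold below reporter-negative TECs (edgeR adjusted p = 1.94e-05). Its neighbour *S100a11*, an envelope-associated S100 protein, was at 210, 174, and 176 RPKM in RANK+ libraries and 313, 290, and 318 RPKM in CCL21+ libraries (log2 fold change -0.84 ± 0.10, edgeR adjusted p = 6.31e-05). *S100a1*, at the opposite end, was called 1.73-fold lower (edgeR adjusted p = 0.0494), but its libraries overlapped, with 41.0, 17.1, and 19.7 RPKM in RANK+ and 55.2, 30.7, and 36.1 RPKM in CCL21+ TECs, and the call was lost with RLE or upper-quartile scaling and with DESeq2.

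Markers of other cell types moved with the RANK+ libraries. *Ptprc*, the gene of CD45, was at 0.576, 0.178, and 0.422 RPKM in RANK+ libraries and at 0.193 RPKM or less in the others. The 10 neutrophil markers summed to 139, 33.1, and 42.4 CPM in RANK+ libraries and to 2.05 CPM or less in the others. The most abundant was *Lyz2*, at 52.3, 14.7, and 17.9 RPKM, and 5 of the 6 tested markers were called higher than in CCL21+ TECs. The granule genes *Mpo*, at 9.55, 1.99, and 3.12 RPKM in RANK+ libraries, *Ngp*, at 6.67, 2.45, and 2.66 RPKM, *Ltf*, and *Camp* were among them. The neutrophil genes *Elane*, *Cxcr2*, *Csf3r*, and *Retnlg* of the same list were at 0 in every CCL21+ and reporter-negative library and at 0.337 RPKM or less in the RANK+ libraries, some at 0. The part of these cells in the levels of *S100a8*, *S100a9*, *S100a4*, and *S100a6* was not tested.

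Of 7 macrophage and dendritic cell markers 5 were called higher in RANK+ than in CCL21+ TECs, with sums of 34.0, 13.5, and 15.6 against 0.587 to 2.08 CPM and *C1qa* highest per length. Of 6 fibroblast markers 4 were called higher, with sums of 296, 145, and 178 against 15.3 to 24.2 CPM and *Col1a1* highest, although *Pdgfra*, a defining marker, was at 0.122 RPKM or less in RANK+ libraries and at 0.154 to 0.263 RPKM in CCL21+ libraries. The 8 thymocyte markers summed to 96.8, 40.1, and 79.4 CPM in RANK+ libraries and 54.5, 19.6, and 28.9 CPM in CCL21+ libraries, with *Rag1* highest and 2 called. The 4 endothelial markers summed to 10.9, 6.96, and 5.15 CPM in RANK+ libraries and 1.83 CPM or less in the others, with none called and *Cdh5* highest. In contrast, all 4 parathyroid markers were called higher in CCL21+ TECs, with *Chga* at 4061, 878, and 1020 RPKM. The part of any of these cells in the results was not tested.

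The *Sprr* family was carried by the *Sprr2a* genes, which encode proline-rich precursors that cross-bridge the envelope. Between 96.1% and 99.8% of all *Sprr* counts of a library were assigned to *Sprr2a1*, *Sprr2a2*, and *Sprr2a3*. Because the assignment of reads depends on how much the copies differ, the coding sequences of *Sprr2a2* (chr3:92253905-92254153) and *Sprr2a3* (chr3:92288588-92288836) are shown, taken from GENCODE M21 transcripts (GRCm38, plus strand), 5′ to 3′, with capitals at the 3 positions that differ.
Sprr2a2: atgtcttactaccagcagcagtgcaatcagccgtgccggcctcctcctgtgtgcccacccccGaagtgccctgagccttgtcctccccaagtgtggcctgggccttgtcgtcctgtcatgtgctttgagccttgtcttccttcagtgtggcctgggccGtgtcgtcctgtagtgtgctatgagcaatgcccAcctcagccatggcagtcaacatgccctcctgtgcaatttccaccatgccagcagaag
Sprr2a3: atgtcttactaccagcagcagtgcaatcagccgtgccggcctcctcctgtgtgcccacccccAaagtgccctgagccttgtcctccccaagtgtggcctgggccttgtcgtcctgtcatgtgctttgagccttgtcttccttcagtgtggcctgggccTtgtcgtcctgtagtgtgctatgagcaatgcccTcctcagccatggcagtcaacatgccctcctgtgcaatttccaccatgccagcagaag

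The coding sequence of *Sprr2a1* (chr3:92219092-92219340) was identical to that of *Sprr2a2* over 249 bases, and so were the 250 bases before their annotated starts. *Sprr2a3* differed from *Sprr2a1* at 3 positions counted from the first coding base, G63A, G159T, and A192T (98.8% identity). Reads from the coding region therefore cannot separate *Sprr2a1* from *Sprr2a2*, and the division of counts between copies, of which *Sprr2a2* received 91.3% to 95.2% in every library, is uncertain. The summed level of the 3 copies does not depend on that division.

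Summed over the copies, the *Sprr2a* genes were at 637, 401, and 386 CPM in CCL21+ libraries, 290, 321, and 244 CPM in RANK+ libraries, and 16.1 and 15.6 CPM in reporter-negative libraries. The 3 populations did not overlap, with the largest step between the reporter-negative population and both others. As assigned, *Sprr2a2* was at 202, 127, and 122 RPKM in CCL21+ libraries, 91.3, 102, and 77.9 RPKM in RANK+ libraries, and 5.25 and 4.89 RPKM in reporter-negative libraries. It was 29.7-fold higher in CCL21+ than in reporter-negative TECs (log2 fold change 4.89 ± 0.29, edgeR adjusted p = 5.51e-05) and 16.4-fold higher in RANK+ than in reporter-negative TECs (log2 fold change 4.04 ± 0.28, edgeR adjusted p = 3.57e-06).

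Between the reporter-positive populations the difference in *Sprr2a2* was smaller, with a log2 fold change of -0.86 ± 0.21 (1.81-fold lower in RANK+ TECs, edgeR adjusted p = 0.00626). *Sprr2a1* and *Sprr2a3* were called in the same directions in all 3 comparisons, with log2 fold changes of -0.96 and -0.74 between the reporter-positive populations, 3.63 and 5.00 for RANK+ over reporter-negative TECs, and 4.59 and 5.74 for CCL21+ over reporter-negative TECs. Between the reporter-positive populations both calls were lost without CCL21+ replicate 1 or without RANK+ replicate 3, that of *Sprr2a1* also without CCL21+ replicate 2, and that of *Sprr2a3* also with at least 10 counts required in every library, whereas the call of *Sprr2a2* held under each of these. In CCL21+ replicate 1, which had the highest *Sprr2a* sum, the parathyroid markers were also highest, and their part in the sum was not tested.

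*Sprr1a*, the other *Sprr* gene with a group mean over 1 RPKM, did not share the *Sprr2a* order. It was at 11.9, 3.71, and 5.57 RPKM in RANK+ libraries, 2.16, 1.38, and 0.563 RPKM in CCL21+ libraries, and 0.331 and 0.104 RPKM in reporter-negative libraries. It was 4.59-fold higher in RANK+ TECs than in the former (edgeR adjusted p = 0.0145) and 28.7-fold higher than in the latter (edgeR adjusted p = 0.00136). The first call was lost without RANK+ replicate 1 (log2 fold change 1.66, edgeR adjusted p = 0.0548). The remaining *Sprr* genes were scattered at low counts, the highest being *Sprr1b* with 60 counts in RANK+ replicate 1, 0 in replicate 2, and 7 in replicate 3. *Sprr2b* and *Sprr2k* had counts in RANK+ replicates 2 or 3 but not in replicate 1.

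Most of the fused-type S100 genes were close to absent outside RANK+ TECs. *Hrnr* (chromosome 3, 93319749, plus strand), the gene of hornerin, had 0 counts in all 3 CCL21+ libraries, 1096, 575, and 682 counts in RANK+ libraries, and 3 and 1 counts in reporter-negative libraries. Its level of 1.71, 1.03, and 1.43 RPKM in RANK+ TECs was at least 249-fold higher than a floor of 3 counts per CCL21+ library. The value that had drawn attention to the group was this one, so no p-value is given for it. *Hrnr* is nevertheless counted among the genes called higher in RANK+ TECs than in each other population. Those counts thus include a gene whose difference was known beforehand. Over reporter-negative TECs the log2 fold change of *Hrnr* was 8.84. The 3 RANK+ libraries differed by less than 2-fold, a narrower spread than for the other fused-type S100 genes.

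*Crnn*, the gene of the squamous epithelial protein cornulin, had 404, 152, and 102 counts in RANK+ libraries (3.78, 1.63, and 1.28 RPKM), 2, 0, and 0 in CCL21+ libraries, and 2 and 5 in reporter-negative libraries. The ratio to CCL21+ TECs was 325 (95% exact counting interval 89.5 to 2690). *Crnn* was called over CCL21+ TECs (edgeR adjusted p = 6.22e-05). *Flg*, the gene of filaggrin, had 1813, 163, and 576 counts in RANK+ libraries against 0, 4, and 1 counts in CCL21+ libraries and 1 and 0 counts in reporter-negative libraries. The fitted log2 fold change over CCL21+ TECs was 8.74 ± 1.07 (edgeR adjusted p = 0.000106). *Flg* was not called, since its mean of 0.856 RPKM lay under the threshold on level. *Crnn* and *Flg* passed the filter only through the RANK+ libraries, so their adjusted p are a description. Without RANK+ replicate 1 the log2 fold change of *Flg* was 7.85.

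*Rptn*, the gene of the envelope precursor repetin, was dominated by replicate 1, with 1009, 33, and 26 counts in RANK+ libraries (4.25, 0.159, and 0.147 RPKM) and 6 counts or fewer in the others. Without that library its log2 fold change over CCL21+ TECs was 6.12 (edgeR adjusted p = 0.00291) instead of 9.35, and its mean of 0.153 RPKM fell under the threshold. Its call over reporter-negative TECs (edgeR adjusted p = 0.0114) was lost without either reporter-negative library. *Flg2* lay largely in the same library, with 172, 6, and 1 counts in RANK+ libraries and 1 count in all others together, and did not pass the filter. *Tchhl1* had 106, 10, and 15 counts in RANK+ libraries, 1 count in 1 CCL21+ library, and 0 counts in reporter-negative libraries (log2 fold change 6.37 ± 1.48 over CCL21+ TECs, edgeR adjusted p = 0.00626), with a mean under 1 RPKM, and its log2 fold change without replicate 1 was 4.91. *Rptn* and *Tchhl1* also passed the filter only through the RANK+ libraries, so their adjusted p are a description.

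*Tchh*, the gene of the hair follicle protein trichohyalin, was the one fused-type S100 gene present in all populations. It was at 15.98, 2.69, and 6.70 RPKM in RANK+ libraries, 2.79, 2.30, and 2.07 RPKM in CCL21+ libraries, and 1.11 and 1.42 RPKM in reporter-negative libraries. The log2 fold change was 1.66 ± 0.47 (edgeR adjusted p = 0.0142) over CCL21+ TECs, although the lowest RANK+ library lay below the highest CCL21+ library, and the call was lost without CCL21+ replicate 3. Without RANK+ replicate 1 the log2 fold change was 0.88 (edgeR adjusted p = 0.0432).

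**Figure D5:**
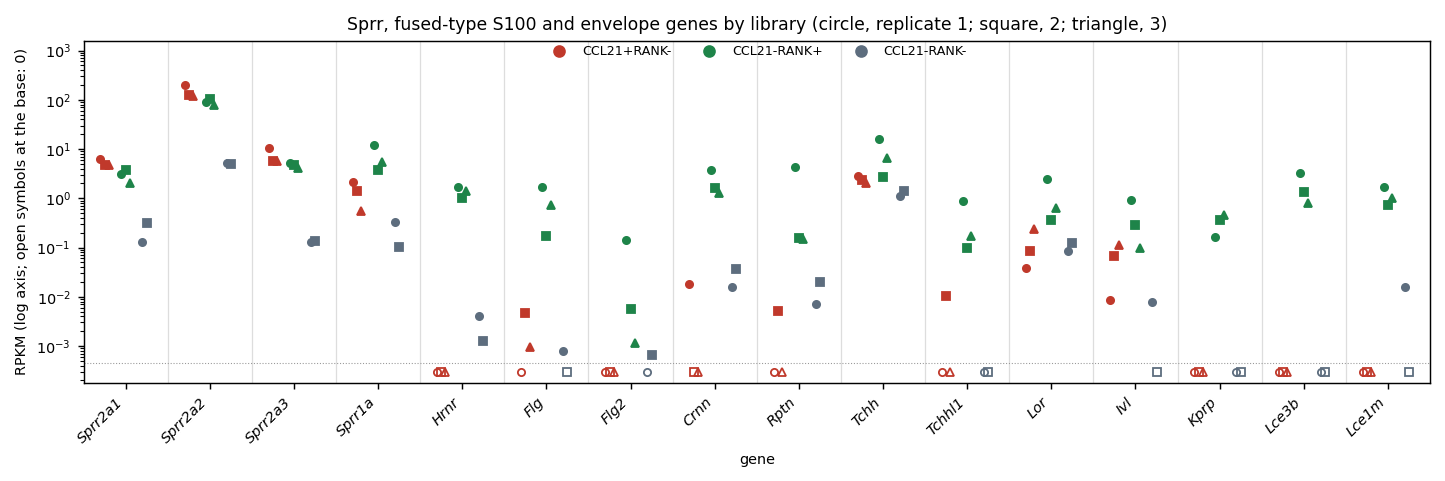
RPKM on a log axis of the *Sprr* and *Lce* genes with a group mean of at least 1 RPKM, the fused-type S100 genes, and *Lor*, *Ivl*, and *Kprp*, a symbol per library, with open symbols at the base for 0 counts. The *Sprr2a* genes are high in both reporter-positive populations, whereas *Hrnr*, *Kprp*, *Lce3b*, and *Lce1m* are at 0 in all CCL21+ libraries.

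The 250 bases before the start are shown for *Hrnr*, whose level led to the choice of the group, and for *Rptn*, the next gene by fitted change over CCL21+ TECs, a place it held through RANK+ replicate 1. They are taken from RefSeq (GRCm38.p6, plus strand, chr3:93319499-93319748 and chr3:93393449-93393698), 5′ to 3′. Capitals mark matches, on either strand, to the AP-1 motif TGANTCA, the TATA box TATAAA, and the kappaB motif (GGG and CC with 5 bases of any kind between them), where N in a motif is any base.
Hrnr: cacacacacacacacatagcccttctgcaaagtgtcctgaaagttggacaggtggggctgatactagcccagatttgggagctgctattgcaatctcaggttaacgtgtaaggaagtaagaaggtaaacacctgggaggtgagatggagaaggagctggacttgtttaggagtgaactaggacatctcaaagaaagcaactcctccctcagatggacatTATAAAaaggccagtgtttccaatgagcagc
Rptn: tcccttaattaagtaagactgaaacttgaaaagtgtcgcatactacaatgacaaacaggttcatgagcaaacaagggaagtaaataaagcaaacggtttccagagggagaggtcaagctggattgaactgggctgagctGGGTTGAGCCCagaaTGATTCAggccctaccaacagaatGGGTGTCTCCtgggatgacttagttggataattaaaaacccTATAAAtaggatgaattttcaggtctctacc

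Both sequences held a TATA box on the coding strand whose first base lies at position -31, counted from the base before the start as -1. The *Hrnr* sequence had no other match, and the *Rptn* sequence also held an AP-1 match at -96 and kappaB matches at -111, -110, and -72, of which the first 2 overlap. RefSeq gave a promoter for 53 of the 61 genes, with 57 starts in all.

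Within 250 bases before the start, 18 of these 57 promoters (31.6%) held the AP-1 motif, compared with 6.75% of 32851 promoters of the same length. The TATA box was present in 23 (40.4% against 12.4%), and it stood on the coding strand within the last 40 bases in 18 (31.6% against 2.31%). The kappaB motif was present in 30 (52.6% against 45.8%). The families differed, with an AP-1 match in 9 of 14 *Sprr*, 5 of 7 fused-type S100, 2 of 14 *S100a*, and 0 of 20 *Lce* promoters, and in those of *Ivl* and *Lor*. These are matches of letters and do not show that a factor binds. The promoters of near-identical copies are not independent, and *Sprr2a1*, *Sprr2a2*, and *Sprr2a3* held no AP-1 match in this window.

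The genes of the classical envelope precursors were low. *Lor*, the gene of loricrin, was at 2.43, 0.370, and 0.631 RPKM in RANK+ libraries, 0.0377, 0.0855, and 0.235 RPKM in CCL21+ libraries, and 0.0833 and 0.126 RPKM in reporter-negative libraries. The RANK+ libraries lay above all others, and the log2 fold change was 3.12 ± 0.85 (edgeR adjusted p = 0.0117) over CCL21+ TECs. Without RANK+ replicate 1 it was 2.01, and the call was lost (edgeR adjusted p = 0.0649). The call of *Lor* over reporter-negative TECs (log2 fold change 3.29 ± 1.01, edgeR adjusted p = 0.0221) was lost without that library (log2 fold change 2.18) or without either reporter-negative library. *Ivl*, the gene of involucrin, had 101, 27, and 8 counts in RANK+ libraries, 1, 6, and 12 counts in CCL21+ libraries, and 1 and 0 counts in reporter-negative libraries, and it did not pass the test over CCL21+ TECs (edgeR adjusted p = 0.0646), although it did with DESeq2, without the expression filter, or without RANK+ replicate 3. Without RANK+ replicate 1 its log2 fold change fell from 2.62 to 1.53. Over reporter-negative TECs it had an edgeR adjusted p of 0.0114, with a mean under 1 RPKM.

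*Kprp*, the gene of keratinocyte proline-rich protein, differed from *Lor* and *Ivl* in that replicate 1 was its lowest RANK+ library. It had 26, 49, and 53 counts there and 0 counts in all 5 other libraries, at least 14.6-fold above a floor of 3 counts per CCL21+ library, with a mean of 0.326 RPKM that lay under the threshold.

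The *Lce* genes were seen almost exclusively in RANK+ TECs. Of the 21 genes 20 were over 3 counts after rounding in replicate 1, 8 in replicate 2, and 8 in replicate 3. *Lce3e*, at 3.19 counts in replicate 2 before rounding, is not among the 8 of that library. In the other populations 0 were over 3 counts in any library, and 3 counts together were assigned to *Lce1a1*, *Lce1m*, and *Lce3c*. For 10 genes replicate 1 was the sole library over 3 counts. *Lce3b* had 105, 38, and 19 counts in RANK+ libraries (3.26, 1.35, and 0.791 RPKM) and 0 elsewhere, at least 16-fold above the floor of CCL21+ TECs, and its mean without replicate 1 was 1.07 RPKM. *Lce1m* had 91, 34, and 41 counts (1.67, 0.714, and 1.01 RPKM), at least 17.1-fold above that floor, and its mean was 1.13 RPKM with and 0.863 RPKM without replicate 1. *Lce1h*, at 27, 14, and 29 counts, was the *Lce* gene with the least dominance of replicate 1, but its mean lay under 1 RPKM. The absence of other *Lce* genes from a library cannot be told from a level under 3 counts.

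The protein-coding genes that lie between the members were read in the same fit. Of 16 such neighbours 8 passed the filter, and *S100a7a*, *Crct1*, and *Gm4858* were called higher in RANK+ TECs than in both other populations. *S100a7a* was at 2.18, 0.43, and 0.42 RPKM in RANK+ libraries, and its mean of 1.01 RPKM was above the threshold only through replicate 1. *Crct1*, the gene of cysteine-rich C-terminal protein 1, was at 7.58, 2.34, and 1.86 RPKM in RANK+ libraries, at 0 in CCL21+ libraries, and at 0.0374 and 0.0705 RPKM in reporter-negative libraries. *Prr9* had 128, 28, and 20 counts in RANK+ libraries and 0 elsewhere.

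Genes that work with the complex in the epidermis but lie elsewhere in the genome were compared by fixed lists. Of all genes tested, 15.4% were called higher and 15.4% lower in RANK+ than in CCL21+ TECs. In comparison with reporter-negative TECs these shares were 14.4% and 15.1%. They stand beside every count of called genes in these lists, the neighbours, and the markers of other cell types. Of 11 genes for enzymes of cornification and barrier lipids, 7 were called higher in RANK+ than in CCL21+ TECs, with a median log2 fold change of 5.30 (0.11 for all genes tested), and 8 were called higher than in reporter-negative TECs. *Asprv1*, the protease that processes profilaggrin, was at 42.6, 22.4, and 18.9 RPKM in RANK+ libraries and at 0.941 RPKM or less in the others (log2 fold change 5.30 ± 0.40, edgeR adjusted p = 4.91e-06). *Tgm3*, a transglutaminase that cross-links envelope precursors, was at 2.75, 1.24, and 1.62 RPKM in RANK+ libraries and at 0.0176 RPKM or less in the others. *Klk5* and *Klk7*, the proteases that shed corneocytes, were called as well. *Tgm1*, the transglutaminase of the cell membrane, was, like the *Sprr2a* genes, lowest in reporter-negative TECs, at 7.88, 6.98, and 6.79 RPKM in RANK+, 4.90, 4.17, and 4.60 RPKM in CCL21+, and 0.666 and 0.830 RPKM in reporter-negative libraries, and was called over reporter-negative TECs in both.

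Of 10 suprabasal keratin genes 7 were called higher in RANK+ than in CCL21+ TECs, with a median log2 fold change of 4.96, and 7 were called higher than in reporter-negative TECs. *Krt77* was at 25.9, 6.78, and 13.4 RPKM in RANK+ libraries and at 0.0911 RPKM or less in the others, and *Krt16*, a keratin of activated keratinocytes, was at 22.7, 9.05, and 13.0 RPKM against 0.938 RPKM or less. *Krt6a*, also a keratin of activated keratinocytes, was at 9.77, 2.53, and 3.22 RPKM in RANK+ and 3.95, 6.77, and 1.63 RPKM in CCL21+ libraries, which overlapped, and was not called in either comparison. *Krt1* and *Krt10*, the pair of the spinous layer, were lower, with *Krt10* at 5.85, 1.94, and 1.65 RPKM and called, and *Krt1* at 2.02, 0.343, and 0.382 RPKM and under the threshold on level. Of 10 genes for secreted and small epidermal proteins, 9 were tested and 7 were called higher, with *Ly6d* at 55.5, 20.7, and 26.7 RPKM in RANK+ libraries against 2.25 RPKM or less in the others. Their median log2 fold change was 1.70, and 8 of the 9 were called higher than in reporter-negative TECs.

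Envelope scaffold and junction genes went both ways, with 4 of 8 called higher in RANK+ and 3 called higher in CCL21+ TECs, and with 4 higher and 2 lower in comparison with reporter-negative TECs. *Dsg1a*, a desmosomal cadherin of the upper epidermis, was at 49.9, 42.8, and 38.7 RPKM in RANK+ libraries and at 1.17 RPKM or less in the others (log2 fold change 5.56 ± 0.43 over CCL21+ TECs, edgeR adjusted p = 5.56e-06). *Cdsn*, which holds corneocytes together, was at 3.61, 0.670, and 1.93 RPKM in RANK+ libraries and had 1 count in 1 other library. *Dsp*, the desmosomal plaque protein desmoplakin, was at 89.6, 51.4, and 50.6 RPKM in RANK+ libraries and 375, 290, and 286 RPKM in CCL21+ libraries, a log2 fold change of -2.45 ± 0.25 (edgeR adjusted p = 2.9e-05). *Pkp1* and *Perp* were the others called lower than in CCL21+ TECs. Over reporter-negative TECs *Dsp* and *Perp* were called lower as well. *Pkp1* was called higher there, at 46.6, 35.2, and 28.6 RPKM in RANK+ libraries and 12.6 and 13.3 RPKM in reporter-negative libraries.

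Of 25 regulators of keratinocyte differentiation 9 were called higher and 7 lower in RANK+ than in CCL21+ TECs, with a median log2 fold change of 0.17. *Grhl3*, a transcription factor of barrier formation, was at 8.89, 3.40, and 3.51 RPKM in RANK+ libraries and at 0.319 RPKM or less in the others (log2 fold change 5.32 ± 0.47, edgeR adjusted p = 1.23e-05). *Zfp750*, a factor of terminal differentiation, was at 9.50, 4.80, and 7.20 RPKM against 0.948 RPKM or less. *Ehf*, *Elf3*, *Ovol1*, *Klf4*, *Fosl2*, and *Cebpb* were among the others called higher. *Trp63*, which encodes the p63 factor of basal stratified epithelia, was at 13.7, 26.2, and 18.5 RPKM in RANK+ libraries and 70.7, 71.8, and 81.2 RPKM in CCL21+ libraries, and was called lower. *Maf*, *Grhl2*, *Ripk4*, *Jun*, and *Cebpa* were also called lower. In comparison with reporter-negative TECs 10 regulators were called higher and 7 lower.

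Without RANK+ replicate 1, the genes called higher than in CCL21+ TECs were 4 instead of 7 cornification enzymes, 4 instead of 7 secreted proteins, 6 instead of 7 suprabasal keratins, 4 as before of the scaffold and junction genes, and 8 instead of 9 regulators. The median log2 fold changes were then 4.93 for cornification enzymes, 1.22 for secreted proteins, 4.37 for suprabasal keratins, and 0.33 for regulators. In that setting the called neutrophil markers were 3 instead of 5 and the called macrophage and dendritic cell markers 3 instead of 5. Over reporter-negative TECs, also without that library, 5 instead of 8 cornification enzymes and 5 instead of 8 secreted proteins were called higher. The others were 6 instead of 7 suprabasal keratins, 4 as before of the scaffold and junction genes, and 10 as before of the regulators.

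Of 7 basal layer genes 2 were called higher and 2 lower in RANK+ than in CCL21+ TECs, and 3 higher and 1 lower than in reporter-negative TECs. *Krt5* was at 375, 561, and 368 RPKM in RANK+ libraries and 1047, 942, and 871 RPKM in CCL21+ libraries and was called lower, as was the laminin gene *Lamb3*, whereas *Krt15* and the integrin gene *Itga6* were called higher. In reporter-negative libraries *Krt5* was at 158 and 122 RPKM, and it was called 2.85-fold higher in RANK+ TECs than there (edgeR adjusted p = 0.00115). Over reporter-negative TECs *Lamb3* was called lower, and *Krt15* (log2 fold change -0.03) and *Itga6* were not called. *Krt14* was at 82.4, 68.1, and 47.3 RPKM in RANK+ libraries and 61.3, 55.1, and 41.8 RPKM in CCL21+ libraries, which overlapped (edgeR adjusted p = 0.487), and at 8.03 and 7.74 RPKM in reporter-negative libraries.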

How the data were processed

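CD45-EpCAM+ TECs of the 3 populations were isolated at E17 and RNA was sequenced in 8 libraries. The authors deposited expected counts per gene from RSEM, which divides a read that matches several genes among them, without normalization or filtering. The submitters' processing notes name bcl2fastq 2.20, Trimmomatic, STAR 2.5.1, RSEM 1.3.1, and the build mm10. The labels name a NEBNext Ultra II Directional kit and the study's methods a TruSeq Stranded Total RNA kit with CLC Genomics Workbench, and the strand setting of the counting is not given in the sources used here. Division between near-identical copies lowers the certainty of single *Sprr* and *Lce* genes more than that of their sums.

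Every gene identifier matched GENCODE M21. RPKM was computed from library totals and the merged exon length per gene, which lowers the level of genes that also have long annotated transcripts, such as *Sprr2a2*. The 2 noncoding genes *Gm26917* and *Gm42418* took up to 19.4% and 10.7% of a library. Counts were rounded, and edgeR 4.0.16 (R 4.3.3) was run with its quasi-likelihood F-test after TMM normalization and its default expression filter, with 1 mean per population, Benjamini-Hochberg adjustment over 21451 genes, and 1 estimate of spread over all 8 libraries. Standard errors were derived from the quasi-likelihood F. The test was run on simulated data with a smaller spread between libraries than here and with changes only in genes of higher counts. That check does not cover genes near the floor or genes absent from a population. A count of 3 per library served as the floor, and counting intervals are exact at 95% and cover counting error only.

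The genes, the lists, and the tests were chosen with earlier results of these data known. Every fused-type S100 gene, *Ivl*, *Lor*, and *Kprp* were named, as were *S100a*, *Sprr*, and *Lce* genes with a group mean of at least 1 RPKM (up to 12 per family), and others named here were picked after their values were seen. Alternatives were DESeq2 1.42.0, RLE and upper-quartile scaling, other filters and thresholds, fits of only the libraries compared, a replicate block, totals without *Gm26917* and *Gm42418*, and leaving out each library. The counts of the lists without RANK+ replicate 1 were added after the data had been seen. Promoter sequences were those of RefSeq (GRCm38.p6), and figures were drawn with matplotlib 3.10.9. Sequences of the encoded proteins were not used here. Some regulators of keratinocyte differentiation that enter the counts of their list are not reported here by name.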

Additional observations from a re-analysis of the deposited data

How the results depend on the processing

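With at least 10 counts required in every library, which removes genes absent from a population, 6 genes of the complex were called higher in RANK+ than in CCL21+ TECs instead of 16, and 9 instead of 20 higher than in reporter-negative TECs. With an adjusted p under 0.05 as the sole threshold, 2 genes (*S100a10* and *S100a11*) were higher in reporter-negative than in RANK+ TECs and 1 (*S100a6*) was higher in reporter-negative than in CCL21+ TECs. With an adjusted p under 0.01, 3 instead of 6 genes were called higher in CCL21+ than in RANK+ TECs. Leaving out each library in turn gave 11 to 17 genes higher in RANK+ than in CCL21+ TECs, 3 to 6 higher in CCL21+ than in RANK+ TECs (3 without CCL21+ replicate 1 or RANK+ replicate 3), 16 to 20 higher in RANK+ than in reporter-negative TECs, 3 to 6 higher in CCL21+ than in reporter-negative TECs (3 without reporter-negative replicate 2), and 0 to 1 higher in reporter-negative than in CCL21+ TECs (1 without reporter-negative replicate 1). Over all genes tested, those called higher in RANK+ TECs rose to 6558 and 5793 with the adjusted p alone, and those that differed between CCL21+ and reporter-negative TECs fell from 934 and 786 to 529 and 338 at an adjusted p under 0.01, 445 and 327 without reporter-negative replicate 1, and 410 and 247 without reporter-negative replicate 2. The cause of these shifts was not tested.

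The sole fold changes to reverse were those of *Lor* between CCL21+ and reporter-negative TECs (0.17, not called), at -0.10 with the replicate block, -0.04 without reporter-negative replicate 1, and -0.70 without CCL21+ replicate 3, with a range of -0.70 to 0.60 over all libraries left out. The call of *S100a1* was lost under most alternatives, and DESeq2 gave no adjusted p for *Rptn*. RLE scaling moved the median log2 fold change of all genes from 0.06 to 0.20 for RANK+ over reporter-negative TECs, under which *S100a11* no longer had an adjusted p under 0.05 there. Libraries of CCL21+ and RANK+ TECs with the same replicate number deviated together with correlations of 0.126, 0.048, and 0.071. Each was the highest for its CCL21+ library, but not all were above 0.1, so the numbers were not taken to pair samples in the main fit. The deposited sample numbers of libraries with the same replicate number follow one another, but the labels do not say whether they were sorted together. With the replicate block, 16 and 6 genes of the complex were called between RANK+ and CCL21+ TECs, 18 and 1 between RANK+ and reporter-negative TECs, and 6 and 0 between CCL21+ and reporter-negative TECs. Depth limits the *Lce* and minor *Sprr* genes, which had 3 counts or fewer in most libraries.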
